A study of Homo sapiens with 66 samples.

Results

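The 4 immediate early response genes IER2, IER3, IER5 and IER5L were described across 22 groups of DLD-1 libraries. They were matched by symbol to the Ensembl identifiers of the count files, which list 58051 genes, and all 4 were among the 17812 genes tested. They were selected on their log2 fold changes in these contrasts, which were known from earlier results, so every contrast of a treated group with its untreated libraries is given below as a description, with no p-value.

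IER genes are switched on within minutes when cells meet growth factors, stress or DNA damage, and their RNAs are short-lived. IER2, IER5 and IER5L share a conserved stretch at the start of the protein: IER2 is found in the nucleus and takes part in transcription, and IER5 brings the phosphatase PP2A with its B55 subunit to targets that include HSF1, the regulator of the heat shock genes. IER5L is the close relative of IER5, while IER3, also called IEX-1, is unrelated in sequence and acts on cell survival and on signalling through ERK.

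DLD-1 is a human colorectal cancer line. In the tagged lines a degron (AID), which has the protein it is fused to destroyed once auxin is added, was placed on both alleles of the gene by CRISPR, and the plant protein TIR1 that this needs was expressed from the RCC1 locus. The tagged lines were clones, so a difference between lines may belong to a clone. The lines were AID-NeonGreen-TPR (here AID-TPR), NUP153-AID and NUP50-AID, whose proteins form the basket on the nuclear side of the pore; AID-FLAG-NXF1 (AID-NXF1), the receptor that carries mRNA out; AID-HA-GANP1 (AID-GANP), the scaffold of the export complex TREX-2, encoded by MCM3AP; and GAP1-NeonGreen-AID (RANGAP1-AID), the activator of the Ran GTPase. Each was untreated or in 1 mM auxin, for 2 h in AID-TPR, AID-NXF1, NUP153-AID and RANGAP1-AID cells and 3 h in NUP50-AID and AID-GANP cells. A later time was 8 h in NUP153-AID and RANGAP1-AID cells and 9 h in NUP50-AID cells. AID-TPR cells have a further set labelled old, untreated and after 2 and 8 h, and a set with Actinomycin D (ActD), which blocks RNA polymerases, for 2 h with and without auxin. Parental DLD-1 cells were labelled untreated and labelled auxin for 2 h. Each group had 3 libraries.

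Between 18943661 and 55411411 reads were counted on genes per library, and no member had fewer than 67 counts in any library. CPM is the usual depth-scaled read count, here on TMM-scaled library totals, or on plain totals for the cell markers. All 7 colon epithelial markers examined, among them EPCAM and KRT8, were above 1 CPM in each of the 66 libraries, with a sum of 5634 to 15767 CPM. The 4 markers of leukocytes, endothelium and fibroblasts summed to between 0 and 2.25 CPM. CYP1A1, which responds to the aryl hydrocarbon receptor, had a log2 fold change above 0 with auxin in every tagged line, from 1.14 to 6.68. In DLD-1 cells it had a mean of 13.1 CPM in the libraries labelled auxin and 188.8 CPM in those labelled untreated, so the direction of every DLD-1 value rests on labels that CYP1A1 goes against. RNA of the tagged genes does not show the loss of their proteins: the log2 fold change of TPR itself was 0.17 in AID-TPR cells.

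The members lie on different chromosomes of GRCh38. IER2 is at chr19:13150411-13154911 on the plus strand, IER3 at chr6:30743199-30744548 on the minus strand, IER5 at chr1:181088700-181092900 on the plus strand and IER5L at chr9:129175552-129178261 on the minus strand. IER5 and IER5L have a single exon, a structure of 2.22% of the 12959 protein-coding genes tested, and IER2 and IER3 have 2 exons in their canonical transcript. The start of the coding sequence is shown because it separates the related members from IER3. The first 90 coding bases are printed, with capitals for the bases that IER2, IER5 and IER5L share without gaps.
IER2: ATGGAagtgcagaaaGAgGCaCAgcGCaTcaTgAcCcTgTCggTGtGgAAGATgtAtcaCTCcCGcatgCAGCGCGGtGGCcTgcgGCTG
IER5: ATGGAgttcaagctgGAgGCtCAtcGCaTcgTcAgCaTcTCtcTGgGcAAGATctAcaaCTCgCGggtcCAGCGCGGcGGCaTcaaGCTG
IER5L: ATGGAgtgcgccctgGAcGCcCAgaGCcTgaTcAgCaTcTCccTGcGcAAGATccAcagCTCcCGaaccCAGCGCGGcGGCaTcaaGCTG
IER3: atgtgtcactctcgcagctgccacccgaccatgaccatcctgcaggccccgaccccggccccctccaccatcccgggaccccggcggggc
The 3 related genes shared 50 of these 90 bases. IER5 and IER5L agreed at 71 bases (78.9%), IER2 and IER5 at 60 (66.7%), and IER2 and IER5L at 54. IER3 shared 33 bases with IER2, 31 with IER5 and 35 with IER5L.

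The transcripts differed in features that the choice of genes did not use. ATTTA, the core of the elements that mark unstable mRNA, occurred 6 times in the 737 bases of the IER3 3′ UTR, or 8.14 times per kb, and 1.93% of the protein-coding genes tested had more per kb. It occurred 10 times in the 3014 bases of IER5 (3.32 per kb), 3 times in the 1286 bases of IER5L (2.33 per kb) and 0 times in the 1053 bases of IER2, with a median of 1.64 per kb over the genes tested. The coding sequences were 669 bases in IER2, 468 in IER3, 981 in IER5 and 1212 in IER5L. GC content was 65.0% in IER5L, 63.0% in IER2, 58.1% in IER3 and 49.8% in IER5, beside a median of 48.8%.

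The promoters are shown to compare the sequence before the start between the members. The 250 bases before the start were taken from RefSeq (GRCh38.p14), where 3 of the 4 members were matched. Capitals mark matches on either strand to the motifs searched. GAANNTTC is a short form of the heat shock element. CCAAT is the site of NF-Y. CCGGAA is the core site of ETS factors. TGACG is a part of the cyclic AMP response element. IER2 is chr19:13150161-13150410 (plus strand), IER5 chr1:181088450-181088699 (plus strand) and IER5L chr9:129178262-129178511 (minus strand).
IER5: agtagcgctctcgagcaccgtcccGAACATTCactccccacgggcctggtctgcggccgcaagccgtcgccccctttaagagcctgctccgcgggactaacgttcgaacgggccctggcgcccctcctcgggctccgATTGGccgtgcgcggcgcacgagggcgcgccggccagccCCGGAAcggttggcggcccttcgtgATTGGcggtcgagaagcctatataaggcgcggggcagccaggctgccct
IER5L: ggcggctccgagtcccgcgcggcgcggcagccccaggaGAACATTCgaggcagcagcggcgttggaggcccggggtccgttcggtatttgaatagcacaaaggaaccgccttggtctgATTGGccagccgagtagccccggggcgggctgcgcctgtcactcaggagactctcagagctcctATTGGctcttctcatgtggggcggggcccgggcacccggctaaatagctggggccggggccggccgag
IER2: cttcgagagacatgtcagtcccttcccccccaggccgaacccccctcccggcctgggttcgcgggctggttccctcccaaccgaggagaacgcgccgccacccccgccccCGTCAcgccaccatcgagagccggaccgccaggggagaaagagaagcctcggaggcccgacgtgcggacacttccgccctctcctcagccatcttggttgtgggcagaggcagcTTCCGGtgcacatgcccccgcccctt
GAANNTTC was found in IER5, from 226 bases before the start, and in IER5L, from 212 bases before it, both times as GAACATTC, and 5.78% of 35116 promoters of this length hold GAANNTTC. Each of the pair also held 2 copies of CCAAT on the opposite strand, a motif in 32.0% of promoters. The ETS core was in IER5 and, on the opposite strand, in IER2, and is in 14.5% of promoters. IER2 also held TGACG on the opposite strand (21.2%). The full element TGACGTCA, which contains the shorter form, is in 1.65% of promoters. TATAAA, a form of the TATA box, is in 10.7%. The CArG box, the site bound by serum response factor, is in 1.16%. None of these 3 windows holds TGACGTCA, TATAAA or a CArG box. The IER5 window does hold tatataag near its end, a TATA-like run that the search for TATAAA does not match. A match is a run of letters and not a bound site, and whether any match bears on the values below was not tested.

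The way reads were counted differed between lines and label sets, and of the members IER3 differed most between the sets so counted. In 24 libraries (DLD-1, AID-NXF1, AID-GANP and AID-TPR without the label old) no reads were counted on mitochondrial genes. In 33 (old AID-TPR, ActD, NUP153-AID and NUP50-AID) mitochondrial genes had counts but RMRP had 0, and both had counts in the 9 libraries from RANGAP1-AID cells. IER3 lay between 71.2 and 756.7 CPM in the 24 libraries, between 2.90 and 49.3 in the 33 and between 2.34 and 10.2 in the 9. Untreated AID-TPR cells had 171.7, 419.9 and 249.6 CPM of IER3, and those labelled old 7.68, 8.03 and 7.23. On a log2 scale, with 0.5 CPM added, the old mean was lower by 5.11 for IER3 and by 0.92 for IER2, while it was higher by 0.48 for IER5 and 0.08 for IER5L. IER3 lies in the MHC on chromosome 6. The 97 protein-coding genes tested within 2 Mb of it had a median log2 ratio of -1.93, old to plain, and the 134 genes from 2 to 6 Mb away one of 0.12, beside -0.02 for all genes tested. A ratio under -1 was found in 73.2% of the genes within 2 Mb, 17.9% of those from 2 to 6 Mb away and 21.4% of all genes tested. Such low ratios were thus not confined to this region. Why the counts there differ was not tested. Levels of IER3 in libraries counted in different ways are printed as counted and cannot be read as a difference between cells. Some differences of log2 fold changes given below also set such libraries against each other.

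**Figure D1:**
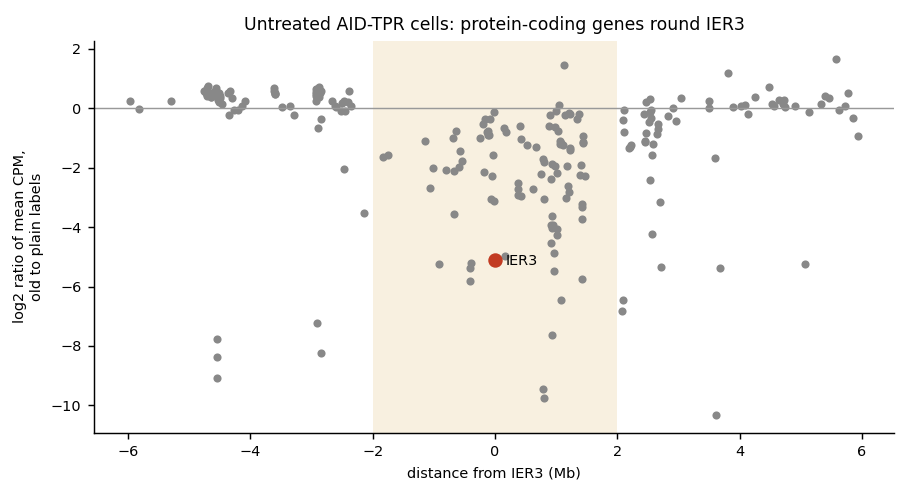
Log2 ratio of mean CPM in untreated AID-TPR libraries labelled old to that in those without the label (vertical axis) for each protein-coding gene tested, by its distance from IER3 in Mb (horizontal axis). The shaded band reaches 2 Mb to either side, where the median ratio was -1.93, and IER3 is the red point at -5.11.

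Genes on the opposite strand share exon bases with 3 of the members. IER3-AS1 covers 32.6% of the IER3 exon bases and held 27.2 to 34.4% as many counts as IER3 in the 24 libraries, and between 0 and 2 counts in each of the other 42. IER5L-AS1 covers 41.8% of IER5L and held 32.4 to 50.5% as many counts in the 24 libraries and 38.6 to 50% in the RANGAP1-AID libraries, and at most 3 counts in the 33. ENSG00000267598 covers 30.7% of IER2 and held 54.4 to 60.5% and 53.7 to 59.9% as many counts in those 2 sets, and 0 in the 33. The strand setting of the counting is not given in the sources used here, so reads of a member and of its antisense gene cannot be told apart in the 24 libraries, nor in the RANGAP1-AID libraries for IER2 and IER5L. In AID-GANP cells the log2 fold change was 1.41 for IER3 and 1.398 for IER3-AS1, and -1.402 for IER5L and -1.47 for IER5L-AS1. HCG20 overlaps 6.30% of IER3 and no annotated gene overlaps IER5.

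Between genes, levels were compared per kb of merged exon, within a group. In untreated AID-TPR cells IER3 had a level of 207.7 CPM per kb, IER2 39.0, IER5 7.15 and IER5L 6.60. In the old set IER2 led with 20.5 CPM per kb, before IER5 with 9.99, IER5L with 6.96 and IER3 with 5.66. The old libraries were counted in another way, and of the members IER3 differed most between the label sets. The place of IER3 in either order therefore cannot be read as its level beside the other members.

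Across untreated lines IER5 had the narrowest range. Its mean was 44.8 CPM in AID-GANP, 43.2 in DLD-1, 42.0 in old AID-TPR, 37.9 in NUP50-AID, 37.2 in NUP153-AID, 33.0 in AID-NXF1, 30.02 in AID-TPR and 24.3 in RANGAP1-AID cells. The libraries of each neighbour in this order overlapped, except those of AID-TPR (28.4 to 31.7 CPM) and RANGAP1-AID (23.3 to 25.7). IER5L ran from 18.9 CPM in old AID-TPR over 17.9 in AID-TPR, 16.7 in NUP153-AID, 12.7 in AID-NXF1, 9.61 in NUP50-AID, 8.51 in AID-GANP and 7.33 in RANGAP1-AID to 6.51 in DLD-1 cells. The neighbours NUP153-AID (14.9 to 19.5) and AID-NXF1 (10.45 to 14.2) did not overlap. IER2 had means of 120.0 CPM in AID-TPR, 101.4 in AID-NXF1, 66.5 in DLD-1, 63.2 in old AID-TPR, 62.6 in AID-GANP, 52.8 in RANGAP1-AID, 48.4 in NUP153-AID and, lowest, 32.8 in NUP50-AID cells. The only neighbours that did not overlap were NUP153-AID (43.5 to 58.2) and NUP50-AID (30.3 to 36.7). The orders of these 3 genes mix libraries counted in different ways: AID-TPR cells gave 120.0 CPM of IER2 in plain and 63.2 in old libraries. Line and way of counting cannot be told apart in them. Within the 24 libraries IER3 was highest in AID-NXF1 (303.5 CPM) and AID-TPR (280.4) and lowest in AID-GANP cells (95.7).

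**Figure D2:**
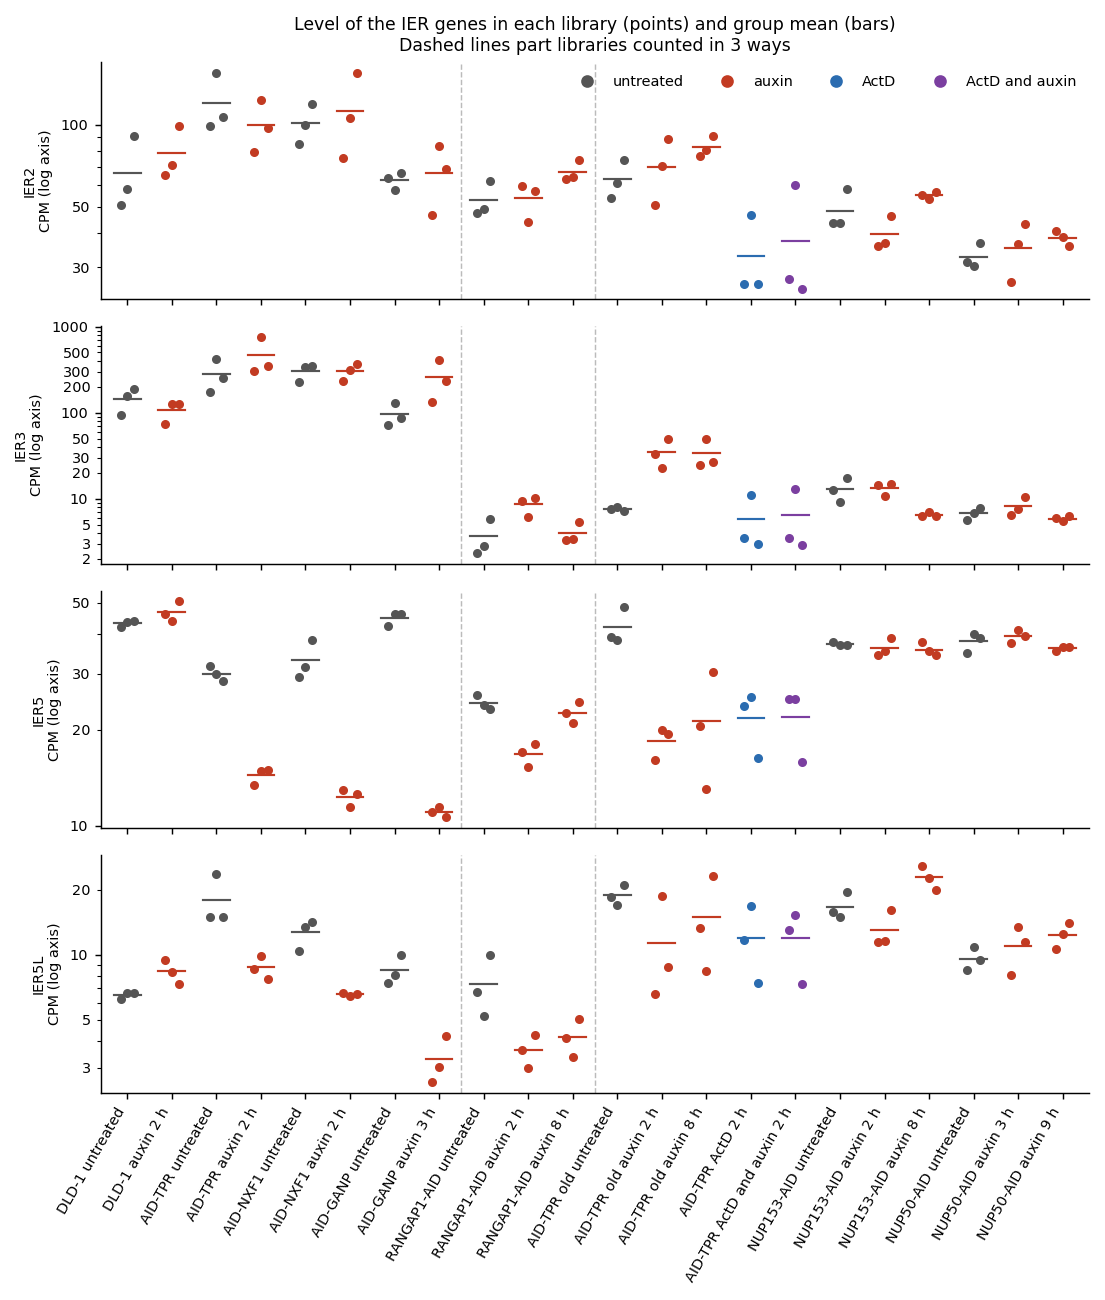
CPM of the 4 IER genes (log axis, 1 panel a gene) in each of the 66 libraries, by group; bars are group means of 3 libraries and colours give the treatment. IER5 is lower with auxin in the AID-TPR, AID-NXF1 and AID-GANP groups, and IER3 drops to under 50 CPM in all libraries right of the first dashed line, which were counted in other ways.

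IER5 and IER5L were lower after TPR loss. IER5 had 31.7, 29.99 and 28.4 CPM in untreated AID-TPR cells and 13.4, 14.8 and 14.9 CPM after 2 h of auxin. The groups lay apart, and the log2 fold change was -1.06 (SE 0.086). IER5L had 14.99, 23.6 and 15.04 CPM without and 8.59, 9.90 and 7.73 CPM with auxin, again with no overlap, for a log2 fold change of -1.03 (SE 0.18). A gene is called here when its p, adjusted over all genes tested, is under 0.05 by the quasi-likelihood test of edgeR and its fold is 1.3 or more, or 0.7 or less. Both were called, 2 of the 4 members, where 0.511% of all genes tested were called. The call of IER5L was lost without auxin replicate 1 (-1.02) or 3 (-0.95) or untreated replicate 1 (-1.15) or 3 (-1.14).

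IER3 and IER2 were not called in the same libraries. IER3 had 171.7, 419.9 and 249.6 CPM untreated and 308.5, 756.7 and 345.4 CPM with auxin. The groups overlapped because replicate 2 was high in both, yet each auxin library was above the untreated library of its number, 1.80, 1.80 and 1.38 times, and the log2 fold change was 0.75 (SE 0.36). Without a term for the replicate number IER3 was not called; with it, or with no filter on low counts, IER3 was called, at 0.73 with the term. IER2 had 98.8, 154.7 and 106.6 CPM untreated and 79.2, 123.2 and 97.5 with auxin, a log2 fold change of -0.26 (SE 0.18), not called.

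In the old AID-TPR libraries IER5 was again lower and IER3 was higher. IER5 had 39.0, 38.4 and 48.6 CPM untreated and 16.03, 19.98 and 19.4 after 2 h, with a log2 fold change of -1.19 (SE 0.15). IER3 had 32.7, 22.5 and 49.3 CPM after 2 h against 7.23 to 8.03 untreated, with a log2 fold change of 2.19 (SE 0.26). Both were called, where 0.455% of the genes tested were. IER5L was not called (-0.73, SE 0.32): auxin replicate old2, with 18.8 CPM, lay among the untreated libraries (16.95 to 21.1), and the other two were at 6.60 and 8.77; without it the value was -1.28 and was called. IER2 was at 0.14 (SE 0.20). With no filter IER5L was also called. Calls were lost without untreated replicate old2 (IER3 2.23, IER5 -1.24) and, for IER5, old3 (-1.07).

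After 8 h in the old set, IER3 was still high with 24.9, 49.3 and 26.5 CPM, a log2 fold change of 2.14 (SE 0.28), and was the 1 member called, beside 3.61% of the genes tested. IER5 spread from 13.02 over 20.6 to 30.5 CPM, all below the untreated libraries, with -0.99 (SE 0.26); it was called when auxin replicate old2 was left out, at -0.74, and with DESeq2. IER5L was at -0.34 (SE 0.30) and IER2 at 0.38 (SE 0.14), neither called. The IER3 call was lost without untreated replicate old1 (2.12) or old2 (2.19). No member was called when 8 h was compared with 2 h: the log2 differences were 0.24 for IER2, -0.05 for IER3, 0.20 for IER5 and 0.39 for IER5L, with SE of 0.19, 0.33, 0.27 and 0.42. In this comparison 0% of the genes tested were called, both with edgeR and with DESeq2, and 48 had an unadjusted p under 0.05.

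In AID-NXF1 cells IER5 fell in all libraries, from 29.4, 31.5 and 38.2 CPM to 12.98, 11.4 and 12.5, a log2 fold change of -1.45 (SE 0.10). IER5L went from 10.45, 13.4 and 14.2 CPM to 6.645, 6.46 and 6.605, or -0.97 (SE 0.12). The 2 were called, where 8.16% of the genes tested were. IER3 was not called: it had 225.6, 337.6 and 347.4 CPM untreated and 230.7, 309.7 and 363.5 after auxin, a log2 fold change of -0.03 (SE 0.17). IER2 stood at 0.13 (SE 0.20).

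The largest fall of IER5 came in AID-GANP cells, from 42.3, 46.1 and 46.2 CPM to 11.1, 11.4 and 10.6, a log2 fold change of -2.05 (SE 0.080). Only 0.101% of the genes tested had a lower value there. IER5L went from 7.42, 8.08 and 10.0 CPM to 2.59, 3.04 and 4.22, or -1.402 (SE 0.18). IER3 rose from 71.2, 129.2 and 86.7 CPM to 133.5, 411.0 and 234.1, or 1.41 (SE 0.34), which became 0.91 without auxin replicate 2, the highest library. These 3 members were called, beside 15.5% of the genes tested, and IER2 was not (0.05, SE 0.17).

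IER5 was not called after loss of the other basket proteins. In NUP153-AID cells it had 37.7, 36.9 and 36.9 CPM untreated, 34.3, 35.3 and 38.8 after 2 h and 37.6, 35.3 and 34.2 after 8 h, with log2 fold changes of -0.04 (SE 0.067) and -0.06 (SE 0.070). In NUP50-AID cells it had 34.8, 40.0 and 38.9 CPM untreated, 37.4, 41.2 and 39.4 after 3 h and 35.4, 36.4 and 36.3 after 9 h, with 0.07 (SE 0.088) and -0.07 (SE 0.079). No member was called after 2 h of NUP153 loss, where 0.0393% of the genes tested were called, nor after 3 h or 9 h of NUP50 loss (0.219% and 0.371%). After 8 h of NUP153 loss IER3 was called lower, with 6.29, 7.03 and 6.255 CPM against 12.7, 9.04 and 17.5 and a log2 fold change of -1.005 (SE 0.20), beside 1.34% of the genes tested. That call was lost without auxin replicate 2 (-1.06) or 3 (-0.98) or untreated replicate 1 (-1.02), and IER5L, at 0.45 (SE 0.12), was called without untreated replicate 3 (0.56).

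In RANGAP1-AID cells IER5 was the member called at 2 h. It had 25.7, 24.0 and 23.3 CPM untreated and 17.04, 15.3 and 18.1 after 2 h, a log2 fold change of -0.53 (SE 0.094), and was called, beside 0.589% of the genes tested. The call was lost with 5 of the 6 libraries left out in turn, all but auxin replicate 3, at values from -0.56 to -0.47. IER5L went from 6.75, 5.21 and 10.0 CPM to 3.65, 3.00 and 4.28, or -1.02 (SE 0.24), and IER3 from 2.34, 2.81 and 5.79 CPM to 9.43, 6.19 and 10.2, or 1.21 (SE 0.31). Neither was called without a term for the replicate number, and both were with it (-1.01 and 1.23); IER3 was also called without untreated replicate 3 (1.74). IER2 was at 0.02 (SE 0.14). After 8 h IER5L was still lower (4.12, 3.36 and 5.03 CPM, -0.82, SE 0.23) and was called, beside 14.9% of the genes tested, while IER5 (-0.10, SE 0.083), IER3 (0.13, SE 0.31) and IER2 (0.34, SE 0.11) were not. The IER5L call was lost without auxin replicate 1 (-0.80) or 2 (-0.69) or untreated replicate 3 (-0.51), and without the latter IER2 was called (0.48).

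**Figure D3:**
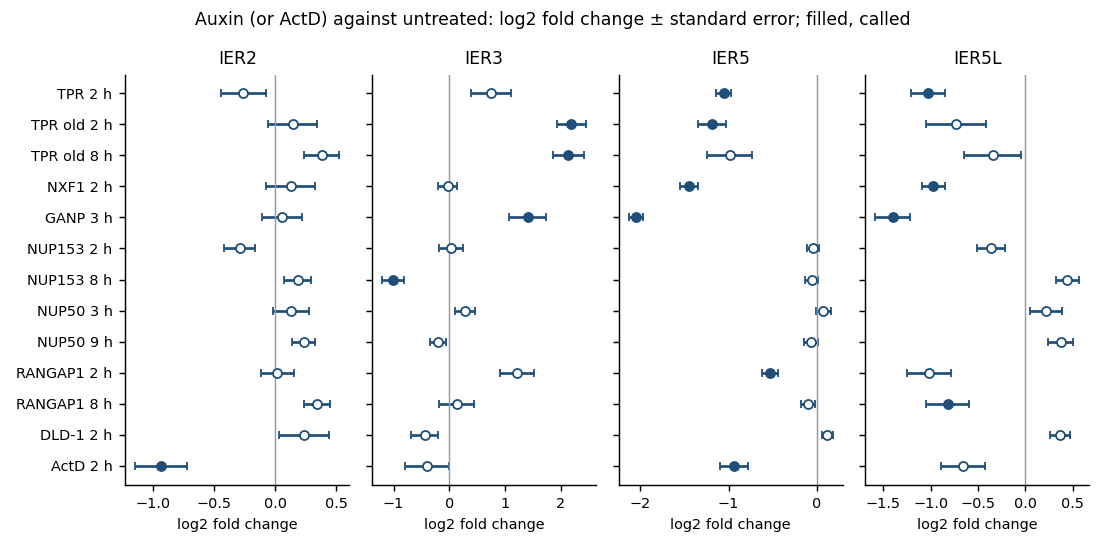
Log2 fold change (horizontal axis) with its standard error (bars) of each IER gene against untreated cells of the same line and label set, for 12 auxin contrasts and ActD, with 3 libraries a group; filled points were called. IER5 lies left of 0 in the AID-TPR, AID-NXF1 and AID-GANP rows, and within 0.12 of 0 in the NUP153, NUP50 and DLD-1 rows.

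In parental DLD-1 cells no member was called, where 0.0561% of the genes tested were. IER5 had 41.9, 43.6 and 43.97 CPM in the libraries labelled untreated and 46.1, 43.98 and 50.6 in those labelled auxin (log2 fold change 0.12, SE 0.061). The values were 0.37 (SE 0.11) for IER5L, -0.44 (SE 0.24) for IER3 and 0.24 (SE 0.21) for IER2, all as labelled.

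IER2 and IER5 were lower with ActD. IER2 had 25.9, 46.6 and 26.0 CPM with ActD and 53.8, 61.3 and 74.5 in the old untreated libraries, a log2 fold change of -0.94 (SE 0.21), and IER5 had 23.7, 25.3 and 16.3 CPM with ActD, also -0.94 (SE 0.16). The 2 were called, beside 21.1% of the genes tested, and 10.0% of the genes tested had a lower value than either. IER3 (3.45, 11.1 and 3.02 CPM, -0.40, SE 0.40) and IER5L (11.8, 16.8 and 7.39 CPM, -0.66, SE 0.24) were not called. ActD replicate 2 was the highest of its group for all 4 members, and without it IER3 (-1.21) and IER5L (-0.96) were called; IER5L was also called with DESeq2, with no filter and with library sizes alone. Since CPM is a share of all reads, these values are relative to the other RNAs and not decay rates.

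With ActD present, auxin made no detectable difference to a member. The choice of genes did not use this comparison, but it did use the contrast of the same ActD libraries with untreated ones. The values are therefore descriptions. IER5 had 23.7, 25.3 and 16.3 CPM with ActD and 24.9, 25.0 and 15.8 with ActD and auxin. The log2 fold change was 0.01 (SE 0.22) for IER5, -0.01 (SE 0.34) for IER5L, 0.14 (SE 0.69) for IER3 and 0.18 (SE 0.37) for IER2, and no member was called. Here 0% of the genes tested were called, by edgeR or DESeq2, 5 genes and no member were called with a term for the replicate number, and 78 had an unadjusted p under 0.05. The difference between this value and the auxin effect without ActD reuses a contrast on which the genes were selected and is a description: it was 1.198 for IER5 (SE 0.27) and -2.04 for IER3 (SE 0.76). No member passed, beside 0.0225% of the genes tested. Whether TPR protein was lost under ActD cannot be read from these counts.

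**Figure D4:**
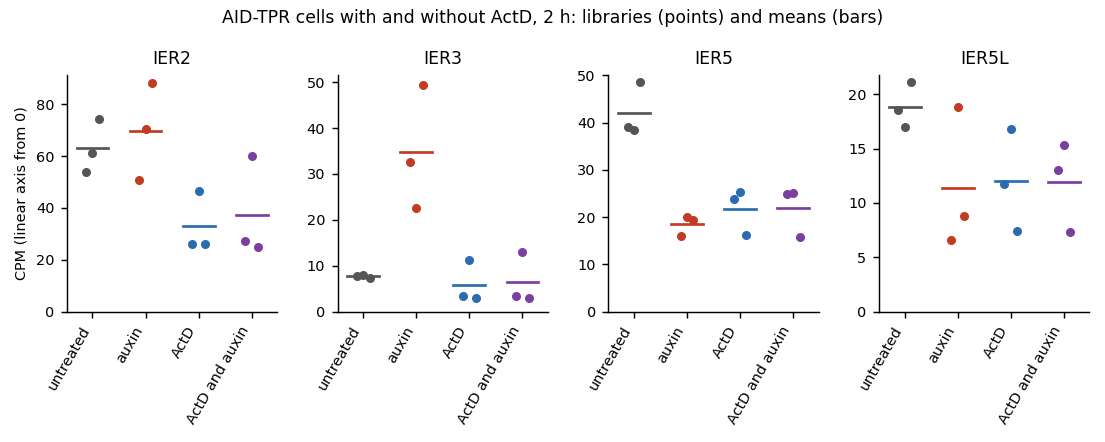
CPM (linear axis from 0) of the 4 IER genes in AID-TPR cells of the old set, untreated or with 2 h of auxin, and of the ActD set, without and with auxin; points are libraries and bars are means of 3. With ActD the IER5 points overlap, from 16.3 to 25.3 CPM without and from 15.8 to 25.0 CPM with auxin.

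Differences between lines are differences of the contrasts on which the genes were selected, so they are descriptions with no p-value. A difference is said to pass where the adjusted p of its interaction term was under 0.05, and the share of all genes that pass is given beside it. The log2 fold change of IER5 after TPR loss minus that after NUP153 loss was -1.02 (SE 0.10, 0.646% of the genes tested passing), and minus that after NUP50 loss -1.13 (SE 0.12, 0.124% passing). TPR minus GANP loss gave 1.001 (SE 0.11, 5.77% passing) and GANP minus NXF1 loss -0.57 (SE 0.13, 2.62% passing). All 4 passed. With each of the 12 libraries left out in turn the first 3 passed, while the last failed without AID-NXF1 auxin replicate 1 (-0.54) or 3 (-0.55), untreated replicate 1 (-0.49) or 2 (-0.53), AID-GANP auxin replicate 3 (-0.55) or untreated replicate 2 (-0.55) or 3 (-0.54). Auxin was given for 3 h in AID-GANP and NUP50-AID cells and for 2 h in the others. AID-TPR libraries without the label old were counted in another way than those of NUP153-AID, NUP50-AID, RANGAP1-AID and old AID-TPR cells. In differences between them, line or label set and way of counting cannot be told apart.

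No other difference passed. For IER5 it was -0.53 for TPR minus RANGAP1 loss (SE 0.13, 0.298% of genes passing) and 0.40 for TPR minus NXF1 loss (SE 0.14, 2.28% passing). Between the label sets of AID-TPR cells it was 0.14 for IER5 (SE 0.18) and -1.43 for IER3 (SE 0.53), where 0% of the genes passed by edgeR, 4 genes by DESeq2, and 574 had an unadjusted p under 0.05. For IER3, GANP minus NXF1 loss gave 1.48 (SE 0.44), which did not pass with all libraries and did without AID-GANP auxin replicate 1 (1.79).

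In lines whose libraries bore out the pairs, more differences passed once the replicate number was a term. This held over all 17812 genes tested: 816 passed for TPR minus NUP153 loss, beside 115 without the term. For TPR minus RANGAP1 loss 946 passed (53 without the term), and for TPR minus NXF1 loss 2370 (407). For TPR minus GANP loss 3937 passed (1027), and for GANP minus NXF1 loss 2685 (466). Among the members, TPR minus NUP153 loss passed with the term for IER3 (0.68) and IER5L (-0.65), TPR minus RANGAP1 loss for IER5 (-0.53), and GANP minus NXF1 loss for IER3 (1.395). TPR minus NXF1 loss passed for IER2 (-0.33), IER3 (0.76) and IER5 (0.40), and TPR minus GANP loss for IER3 (-0.59) and IER5L (0.40).

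Late against early auxin also uses libraries of the selecting contrasts, and its values are descriptions. In NUP153-AID cells IER3 was lower at 8 h than at 2 h, with a log2 difference of -1.04 (SE 0.14), and IER2 (0.47, SE 0.096) and IER5L (0.80, SE 0.14) were higher, so that 3 of the members were called, beside 1.95% of the genes tested. IER3 kept its call whichever of the 6 libraries was left out. IER2 was not called without auxin 2 h replicate 1 (0.40) or 2 (0.42) or auxin 8 h replicate 2 (0.49) or 3 (0.45), and IER5L was not called without auxin 2 h replicate 1 (0.71) or 2 (0.72) or auxin 8 h replicate 2 (0.81). In RANGAP1-AID cells IER3 was lower at 8 h, at -1.08 (SE 0.22), and IER5 higher, at 0.43 (SE 0.096), and both were called, beside 8.8% of the genes tested. IER5 was not called without auxin 2 h replicate 2 (0.37) or auxin 8 h replicate 3 (0.37), and IER2, at 0.32, was called without auxin 2 h replicate 1 (0.41). In NUP50-AID cells none was called between 9 h and 3 h (0.258% of the genes tested), with values from -0.48 for IER3 to 0.15 for IER5L.

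Other immediate-early genes, 23 of 24 listed being tested, are given beside the shares of all genes called in each direction. The list was written with results of these data known. After TPR loss 2 were called higher (0.107% of all genes) and 0 lower (0.404%): FOS with a log2 fold change of 1.295 and PPP1R15A, a phosphatase subunit of the stress response, with 0.92. In the old set 4 rose at 2 h (0.146% of all genes), led by FOS (2.80) and EGR1 (2.49), and 11 at 8 h (1.25%), with a median over the list of 0.86 and 1.02, beside 0 over all genes. After NXF1 loss 7 rose (2.22% of all genes), among them FOS (2.26) and EGR1 (1.37), and 2 fell (5.93%), the antiproliferative BTG2 (-1.95) and the survival factor MCL1 (-0.84). After GANP loss 13 rose (3.97% of all genes), with FOS at 2.66, FOSB at 2.27 and EGR1 at 2.22, and BTG2 (-2.27) and MCL1 (-1.08) fell (11.5%).

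After RANGAP1 loss 4 rose at 2 h (0.483% of all genes), led by ATF3 (1.79) and JUN (1.44), while FOS fell (-0.89, beside 0.107%). After 8 h 4 rose and 5 fell, beside 8.26% and 6.62% of all genes. After 2 h of NUP153 loss 1 fell (EGR1, -0.81, beside 0.00561% of all genes), and after 8 h 3 rose (0.926%), led by FOS (1.68). After NUP50 loss none was called at 3 h or 9 h, with medians of 0.22 and 0.26. At the shares of all genes called there, 0.219% and 0.371%, a list of this size would hold few calls or none. In DLD-1 cells 1 was called, PPP1R15A, lower in the libraries labelled auxin (-0.57, beside 0.0561% of all genes), under the labels that CYP1A1 goes against. ActD lowered 9 (12.3% of all genes), led by MYC (-2.83) and HES1 (-2.46), and raised 2 (8.79%), FOSB (1.88) and CCN2 (1.31), with a median of -0.51.

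The genes of serum response and ERK signalling, 14 of 14 tested, had a single member called in the 13 contrasts with untreated cells. This was MRTFA, a cofactor of serum response factor. It was called lower after GANP loss (-0.53, beside 11.5% of all genes) and with ActD (-0.72, beside 12.3%). Of the 14 genes for HSF1, its targets and the PP2A B55 subunits, all of them tested, none was called after TPR or NXF1 loss. The medians were -0.01, 0.15, 0.20 and 0.03 in the 4 contrasts, beside 0.511%, 0.455%, 3.61% and 8.16% of all genes called. At such shares a list of 14 would hold few calls. HSPA1A and HSPA1B, within 2 Mb of IER3, had means of 0.06 and 0.02 CPM in the old untreated libraries. In the plain ones the means were 0.76 and 45.8 CPM, so the old contrasts say little about these 2 genes. HSPA1B, a heat shock protein, was called lower after GANP loss (-0.91, beside 11.5% of all genes). HSPH1 (-0.77) and PPP2R2D (-0.54), a B55 subunit, were called lower after 8 h of RANGAP1 loss (6.62% of all genes). With ActD, HSPB1 (-0.84) and DNAJB1 (-0.72) were called lower (12.3% of all genes) and PPP2CB, a catalytic subunit of PP2A, higher (0.42, beside 8.79%). IER3IP1, a protein of the endoplasmic reticulum, was called with ActD only (1.06), and lay between -0.20 and 0.21 in the auxin contrasts.

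The genes most like each member were found by Pearson correlation of log2 CPM, centred on the mean of each of 8 lines and label sets, over the 60 libraries without ActD and 11829 other genes. These points share lines, libraries and depth, and they hold the auxin contrasts on which the members were selected. The values, also those between members, are descriptions. IER5 was most like RTL10 (0.93), the tight-junction gene CLDN4 (0.93) and HILPDA, a protein of lipid droplets (0.93). IER5L was most like LZTS2 (0.83), the homeobox gene IRX3 (0.81) and SPATA2L (0.81), and IER5 came at rank 6 of its likeness (0.78), while IER5L came at rank 182 among the genes most like IER5. IER3 was most like DUSP6, the phosphatase of ERK (0.94), then the stress cytokine GDF15 (0.89) and OVOL1 (0.88). IER2 was most like JUNB, a partner of FOS (0.72), HR (0.65) and HOOK2 (0.65). IER3 ran opposite to IER5 (-0.56) and IER5L (-0.45), and the value between IER2 and IER5 was 0.03.

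**Figure D5:**
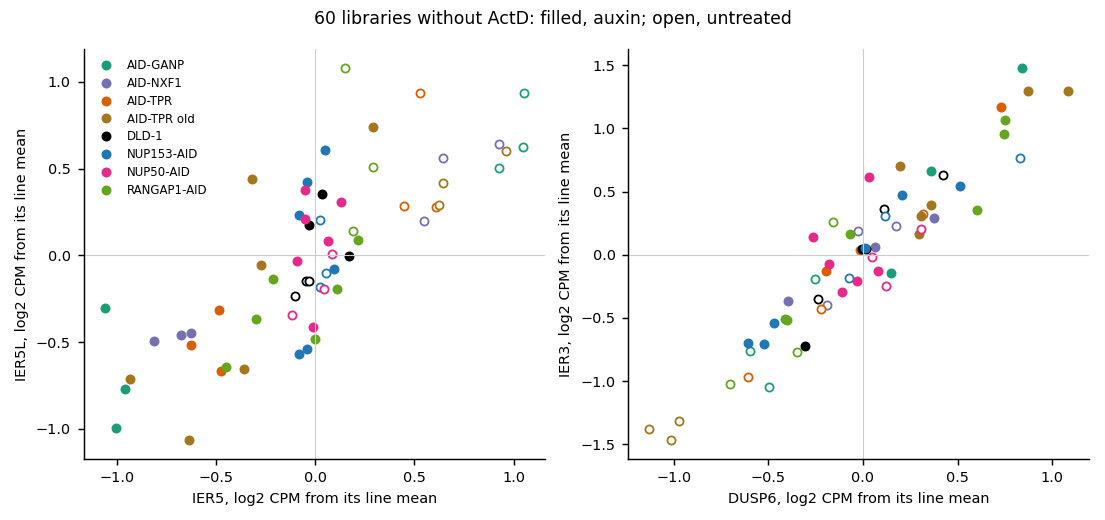
Log2 CPM from the mean of the line and label set in the 60 libraries without ActD, for IER5L against IER5 (left) and IER3 against DUSP6 (right); filled points are auxin and open points untreated libraries, coloured by line. The correlations were 0.78 and 0.94, and the lowest IER5 points are AID-GANP, AID-TPR old and AID-NXF1 libraries with auxin.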

How the data were processed

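Total RNA depleted of ribosomal RNA was sequenced in 66 libraries, 3 per group. The authors mapped reads to GRCh38 with STAR and deposited raw read counts per Ensembl gene from featureCounts. The submitters' processing notes name CASAVA 1.8.2, STAR 2.6.1c and featureCounts 1.5.2, while the paper's methods name other versions. The strand setting is not given in the sources used here. Of the identifiers, 56948 of 58051 matched GENCODE 44, from which positions were taken. Depth was 18943661 to 55411411 counts per library, with a median of 32285399.

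Genes with over 1 CPM in at least 4 of the 60 libraries without ActD were tested (17812). Counts of the groups compared were fitted by edgeR 4.0.16 (R 4.3.3) with TMM normalization and the quasi-likelihood test, with Benjamini-Hochberg adjusted p over all genes tested. The call needed both an adjusted p below 0.05 and a fold of 1.3 or more, or of 0.7 or less. SE is the log2 fold change over the square root of F. CPM printed are on TMM-scaled totals, except those of the cell markers. The markers and the filter used plain library totals. The scripts were tested on simulated data. The members and all gene lists were chosen with earlier results of these data known. Named are the members, genes that overlap them, other IER genes, the tagged genes, CYP1A1, the largest called changes of each list and the 3 genes most like each member. All replicates differed by more than counting noise (chi-square per degree of freedom 4.07 to 67.4 over 66 pairs). The study's methods call the replicates independent biological ones. The labels do not name separate cultures. In bulk RNA, fewer expressing cells and less RNA per cell cannot be told apart.

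To see whether replicate numbers pair libraries, deviations from group means were correlated between libraries of the same number. All 3 correlations exceeded 0.1 in 9 of 17 comparisons, among them AID-TPR, AID-NXF1, AID-GANP and RANGAP1-AID at 2 or 3 h. As alternatives, DESeq2 1.42.0, a replicate term, no filter, RLE scaling, library sizes alone, a joint fit of all libraries and the omission of each library were tried.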

Additional observations from a re-analysis of the deposited data

Results flagged for a closer look

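For IER5 the interaction term between lines had an adjusted p under 0.05 in 4 pairs (edgeR). IER5 was selected on these same contrasts, so the terms restate that selection and are no independent evidence. TPR loss minus NUP153 loss gave a log2 difference of -1.02 and TPR loss minus NUP50 loss one of -1.13: IER5 was called lower in AID-TPR cells and was not called in the other two. TPR loss minus GANP loss gave 1.00 and GANP loss minus NXF1 loss -0.57, so the fall was largest in AID-GANP cells. Auxin was given for 2 h in AID-TPR, NUP153-AID and AID-NXF1 cells and for 3 h in NUP50-AID and AID-GANP cells. The NUP153-AID and NUP50-AID libraries were also counted in another way than the AID-TPR libraries used here. Line, clone, time and, for those lines, way of counting cannot be told apart.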

How the results depend on the processing

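Values called in either fit kept their sign (178 under other settings, 177 with a library left out). Of values called in neither, the sign turned in 5 of 378 and in 61 of 639, all with a reported log2 value of at most 0.47 in size. The number of members called went from 2 to 3 in AID-TPR cells with no filter or the replicate block, in old AID-TPR cells at 2 h with no filter, and with ActD from 2 to 3 with DESeq2, no filter or library sizes alone. It was 1 for old AID-TPR cells at 8 h, and 2 with DESeq2, no filter, the replicate block, library sizes alone or a joint fit. For NUP153-AID cells at 8 h it was 1, but 2 with DESeq2 or no filter and 0 with the replicate block or a joint fit. For RANGAP1-AID cells at 2 h it was 1, but 3 with DESeq2, no filter or the replicate block and 0 with a joint fit. Between late and early auxin it went from 3 to 0 in NUP153-AID and from 2 to 1 in RANGAP1-AID cells with a joint fit. The cause was not tested.

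The members whose difference between lines passed numbered 0 for plain minus old AID-TPR cells and 1 with no filter. TPR minus NUP153 loss went from 1 to 3 with no filter or the replicate block, and TPR minus NUP50 loss from 1 to 2 with DESeq2, no filter or the block. TPR minus RANGAP1 loss went from 0 to 1 with DESeq2 or the block, and TPR minus NXF1 loss from 0 to 2 with no filter and 3 with the block. TPR minus GANP loss went from 1 to 2 with no filter and 3 with the block, GANP minus NXF1 loss from 1 to 2 with either, and ActD against no ActD from 0 to 1 with DESeq2 and 2 with no filter or the block. In each of these settings the number of all genes that passed was higher as well. With no filter more genes were tested: for TPR minus GANP loss 1250 of 41765 passed, beside 1027 of 17812. The share passing with no filter was lower for TPR minus NUP153, NXF1 or GANP loss and for GANP minus NXF1 loss. It was higher for the other differences. With the block the number rose from 22 to 555 for TPR minus NUP50 loss and from 4 to 288 for ActD against no ActD.

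With each library left out in turn, the members called ranged from 1 to 2 in AID-TPR cells, 0 to 3 in old AID-TPR cells at 2 h and 0 to 2 at 8 h, 0 to 2 in NUP153-AID cells at 8 h, 0 to 1 in RANGAP1-AID cells at 2 h and at 8 h, and 2 to 4 with ActD. They ranged from 1 to 3 for late against early auxin in NUP153-AID and in RANGAP1-AID cells, and from 0 to 2 for GANP minus NXF1 loss.

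Where the numbers were not borne out as pairs, the replicate block gave a called IER5 value of -1.05 in old AID-TPR cells at 8 h, and IER3 (-0.96) in NUP153-AID cells at 8 h and IER5L (0.81) at 8 h against 2 h lost their calls. IER5L then passed for TPR minus NUP50 loss (-1.22), and IER3 (-2.05) and IER5 (1.19) for ActD against no ActD. ActD and old untreated libraries share no numbers, so that comparison has no block. Beyond the calls given here and in the report, the block changed none of a member.

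Counts of all genes called moved more. In AID-TPR cells 91 genes were called, 205 with DESeq2, 282 with no filter and 416 with the block. In old AID-TPR cells at 2 h it was 81, and 431, 836 and 292. At 8 h it was 643, and 1904, 1872 and 1682, with 5 to 3738 when a library was left out. After RANGAP1 loss at 2 h it was 105, and 194, 382 and 468, and after NUP153 loss at 2 h 7, and 54, 102 and 134. The lowest count of a member was 67, for IER3 in a RANGAP1-AID library.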
